A study of Mus musculus with 18 samples.

Results

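Ferroportin, encoded by Slc40a1, and 5 other genes of cellular iron handling (Tfrc, Fth1, Slc11a2, Aco1 and Ireb2) were followed in mouse embryonic stem cells (ESCs) measured on 18 Affymetrix arrays. The genes were taken by symbol from the platform annotation. Of 45101 probe sets, 15 named 1 of them alone, and 3 control probe sets of the array for Tfrc were kept beside them, so that 6 of 18193 genes are described. Slc40a1 was chosen for the size of its rise with LY294002 in serum medium, and its values in that contrast are given as a description without a p-value.

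The study compared the effects of LY294002, an inhibitor of phosphoinositide 3-kinase (PI3K), and of ablating Max, the DNA-binding partner of the Myc proteins. All cells were male ESCs of strain 129SV, either EBRTcH3 or derived from it per the labels. Parental EBRTcH3 cells in serum with leukaemia inhibitory factor were measured untreated (2 arrays), after 2 days with LY294002 (1 array) and after 5 days (2 arrays). Derivatives overexpressing wild-type c-Myc, or c-Myc with the T58A substitution, gave 1 array each for no treatment, 2 days and 5 days. Parental cells in 2i, a medium that holds inhibitors of MEK and GSK3, gave 1 untreated array and 1 with LY294002, whose title gives day 5. Max-null ESCs, treated or not with doxycycline (Dox), gave 1 array each for no Dox, 4 days and 6 days. Max-null ESCs overexpressing p110 alpha, a catalytic subunit of PI3K, gave 1 array without and 1 with Dox, for which no day is stated. For T58A, the text describing its untreated sample names N-Myc for the treated partners, while their own titles name c-Myc (T58A), and the titles were followed. The LY294002 dose, the number of clones behind a line and whether samples were separate cultures were not given in the sources used here, so p-values measure the spread between these samples.

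All values are log2 levels from robust multi-array averaging (RMA), so a difference of 1 is a 2-fold change. Medians were 5.03 to 5.05 in 4 arrays (the pair of parental serum replicate 1 and the 2i pair) and 5.31 to 5.52 in the 14 others. The 4 are taken here to come from another RMA run, which no label states. All 10 ESC identity genes, Pou5f1, Nanog and Sox2 among them, lay above the level filter of 4.64 (the 40th percentile of the table) in every array, with means of 11.97 to 12.43. The probe set of Max read 8.17 to 8.71 in the 13 arrays of EBRTcH3 and c-Myc lines and 6.33 to 7.18 in the 5 Max-null arrays. It did not separate Dox from no Dox in the Max-null line (7.09 untreated, 6.89 at day 4 and 7.18 at day 6), and whether it covers the Dox-regulated Max is not stated. The Myc probe set was at 7.51 (wild-type) and 6.99 (T58A) without treatment and at 7.43 and 9.30 in parental serum cells, so the labelled overexpression was not visible in it. The Pik3ca probe set, for the gene of p110 alpha, read 8.82 without and 8.27 with Dox in the p110 alpha line, against 8.50 in the Max-null line without Dox, 7.39 and 7.24 with it, and 8.86 in untreated parental replicate 2. Without Dox the labelled overexpression was therefore not visible, whether the probe set covers the construct is not stated, and each comparison of the p110 alpha line goes by its label.

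Ferroportin is the only known exporter of iron from mammalian cells, and the hormone hepcidin triggers its removal from the surface. Iron enters bound to transferrin through the transferrin receptor (Tfrc), leaves the endosome through the divalent metal transporter (Slc11a2), and is stored in ferritin, whose heavy chain is Fth1. When iron is scarce, the iron regulatory proteins (Aco1, which doubles as the cytosolic aconitase, and Ireb2) bind hairpins called iron responsive elements, which blocks translation of ferroportin and ferritin messages and stabilises that of Tfrc. Much of this regulation therefore acts on translation and stability rather than on transcription, and an array reads the level of RNA only.

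Slc40a1 (chr1:45908070-45926532, GRCm38.p6) was low in every untreated culture and high at day 5 of LY294002 in serum. Its higher probe set, 1417061_at, read 4.46 and 5.21 in the untreated parental cells, 4.75 with wild-type c-Myc and 4.35 with T58A. After 5 days it read 7.43 and 9.19 in parental cells, 8.90 with wild-type c-Myc and 8.67 with T58A. The lowest treated array thus lay more than 2 log2 units above the highest untreated one, in all 3 line types. The 2 untreated arrays below the filter were those of parental replicate 1 and of the T58A line, so folds from them start near the array's floor.

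Within pairs, the day 5 difference in Slc40a1 was 2.97 (7.86-fold) in parental replicate 1, 3.97 (15.7-fold) in parental replicate 2, 4.15 (17.8-fold) with wild-type c-Myc and 4.32 (20.0-fold) with T58A. The fitted change was 3.47 ± 0.26 (SE, n = 2 pairs) in parental cells and 4.24 ± 0.26 (SE, n = 2 lines) in the c-Myc lines. Both SEs come from a single estimate of the spread shared by all pairs, so neither is the spread of its own 2 pairs. No gene had a larger fitted rise in the c-Myc lines, where the next gene that passed was Hs6st2 at 3.79. In the parental cells 4 genes had a larger fitted rise, none of which passed, and the next that passed was Pim2 at 3.24. These are the values that chose Slc40a1, in contrasts that called 0.53% (parental) and 2.62% (c-Myc) of 13404 genes in either direction.

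The second probe set of Slc40a1, 1448566_at, read 4.13 to 4.35 in the 4 untreated serum arrays and 6.82, 7.32, 7.25 and 7.07 at day 5 in parental replicates 1 and 2, wild-type c-Myc and T58A. Its day 5 differences were 2.52, 2.97, 2.98 and 2.94, smaller than those of the first probe set and closer to each other. Both probe sets gave the same order of treated over untreated in every pair.

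Other cell types rich in ferroportin, such as macrophages, were looked for beside this difference. Of 8 macrophage genes, 5 exceeded the filter in the untreated serum arrays and 5 at day 5. The mean over the list was 4.63 to 5.05 untreated and 4.55 to 5.02 at day 5. Csf1r, Cd68, Spi1 and Fcgr1 were above the filter in all 18 arrays and Lyz2 in 14. Adgre1, Ptprc and C1qa lay below the filter in all 18 arrays. Of 7 erythroid genes, 4 exceeded the filter in the untreated serum arrays and 4 at day 5. Their mean was 4.01 to 4.45 untreated and 4.01 to 4.57 at day 5. Klf1 and Epor were above the filter in all 18 arrays, and Hba-a1, Hbb-y and Rhag below it throughout. The mean of 12 endoderm genes was 4.77 to 5.10 and 4.79 to 4.94, and that of 7 trophoblast genes 5.69 to 5.85 and 5.41 to 6.15. The ESC identity mean was 12.09 to 12.30 untreated and 11.97 to 12.11 at day 5. In a bulk sample, more RNA per cell and more cells that carry it cannot be told apart.

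**Figure D1:**
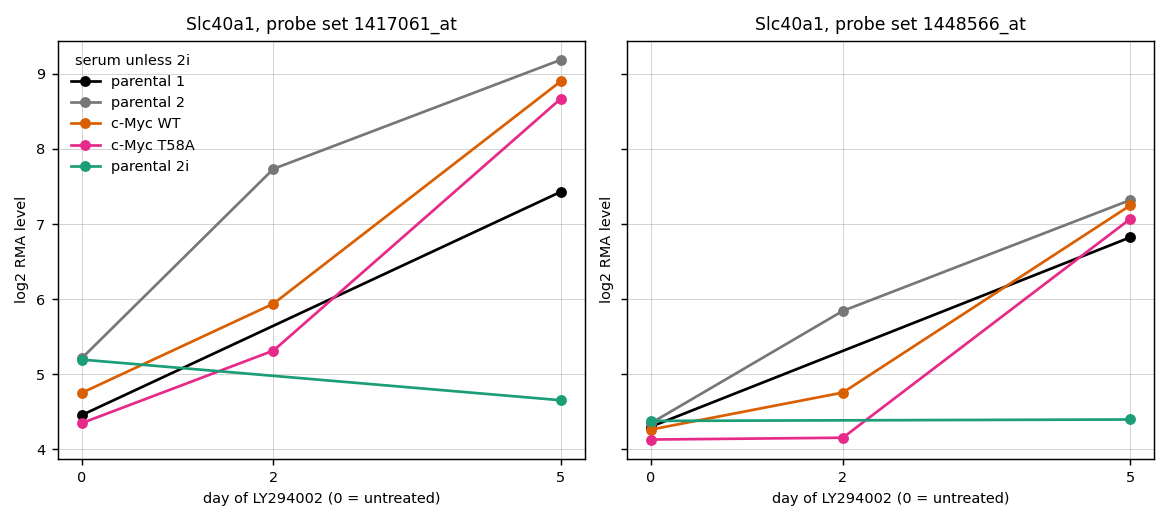
Log2 RMA level of Slc40a1 (y axis) against the day of LY294002 (x axis, day 0 untreated), 1 point per array and 1 line per culture, for probe set 1417061_at (left) and 1448566_at (right). The serum cultures end between 7.43 and 9.19 in the left panel while the 2i culture ends at 4.65, and at day 2 the parental culture (7.73) lies above both c-Myc lines (5.94 and 5.32).

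The course over days differed between the lines measured at both times. At day 2 Slc40a1 read 7.73 in parental cells, 5.94 with wild-type c-Myc and 5.32 with T58A, which are differences of 2.52 (5.74-fold), 1.19 (2.28-fold) and 0.97 (1.95-fold) from the same lines untreated. The fitted day 2 change over the 3 lines was 1.56 ± 0.33 (SE), and a further 2.59 ± 0.33 (SE) was added between day 2 and day 5. On this probe set the parental difference at day 2 stood beside one of 3.97 at day 5 in replicate 2, which shares its untreated array, and those of the c-Myc lines beside 4.15 and 4.32. On the second probe set the day 2 differences were 1.49, 0.49 and 0.02, with a fitted 0.67 ± 0.26 (SE), beside 2.97, 2.98 and 2.94 at day 5. On both probe sets the c-Myc lines had the smaller differences at day 2.

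Direct comparison of the lines at day 2 put Slc40a1 3.47-fold lower with wild-type c-Myc than in parental cells and 5.35-fold lower with T58A. Only 7 of 13127 genes had a lower difference between T58A and parental cells at that day. A fit with separate day 2 changes gave 2.52 for the parental pair and 1.08 for the c-Myc lines, a difference of -1.45 ± 0.20 (SE). The parental side is 1 line with 1 array at each time, so the SE holds no spread between parental cultures. The untreated arrays are among those that chose the gene, so no p is given. That fit has 2 residual degrees of freedom and called 0% of 13420 genes (0 at an adjusted p under 0.05 and 1703 at an unadjusted p under 0.05). At day 5 the fitted LY294002 change was 0.76 ± 0.37 (SE) larger in the c-Myc lines than in the parental cells, given without a p because these values chose the gene. It was 0.26 without parental replicate 1 and 1.26 without parental replicate 2. The day 5 levels themselves overlapped, since parental replicate 2 (9.19) lay above both c-Myc lines and parental replicate 1 (7.43) below them.

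In 2i Slc40a1 did not follow the serum cultures. It read 5.20 untreated and 4.65 at day 5, a difference of -0.54 (1.46-fold lower), and the second probe set read 4.38 and 4.40. The untreated 2i array lay 0.74 above the untreated serum array of the same inferred RMA run, and the treated 2i array differed from the treated serum array by -2.78 (6.85-fold lower). The LY294002 difference in 2i minus that in the parental serum pairs was -4.02 ± 0.45 (SE). The 2i side of this contrast is 1 pair, and the serum pairs are among those that chose the gene, so no p is given. Leaving out parental replicate 1 gave -4.52 and leaving out parental replicate 2 gave -3.52.

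In the Max-null lines, which the choice of the gene did not use, Slc40a1 stayed low with small differences in 1 direction. The Max-null line read 5.10 untreated, 5.86 at day 4 of Dox and 5.88 at day 6, and the p110 alpha line 4.75 without and 5.30 with Dox. All 3 Dox arrays lay above both arrays without Dox. On the second probe set the differences within a line were 0.18, 0.72 and 0.63. The fitted change was 0.68 ± 0.25 (SE, n = 3 Dox against 2 arrays), with an unadjusted p of 0.0326 and an adjusted p of 0.80, so it did not pass. This contrast called 0% of 13534 genes with limma, and 701 had an unadjusted p under 0.05.

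Ordered over all conditions, Slc40a1 was highest at day 5 with wild-type c-Myc (8.90), T58A (8.67) and in parental cells (8.31 ± 1.24, SD, n = 2), followed by parental cells at day 2 (7.73). These 4 neighbours differ by less than the spread between the parental replicates, which would include any offset between the inferred RMA runs. A gap of 1.79 separates them from wild-type c-Myc at day 2 (5.94), the 2 Max-null Dox arrays (5.88 and 5.86), T58A at day 2 (5.32), p110 alpha with Dox (5.30) and untreated 2i cells (5.20). Below these came the untreated Max-null line (5.10), untreated parental cells (4.84 ± 0.54, SD, n = 2), untreated wild-type c-Myc (4.75), p110 alpha without Dox (4.75), 2i with LY294002 (4.65) and untreated T58A (4.35). Neighbours in this lower run differ by less than the spread between the untreated parental replicates.

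**Figure D2:**
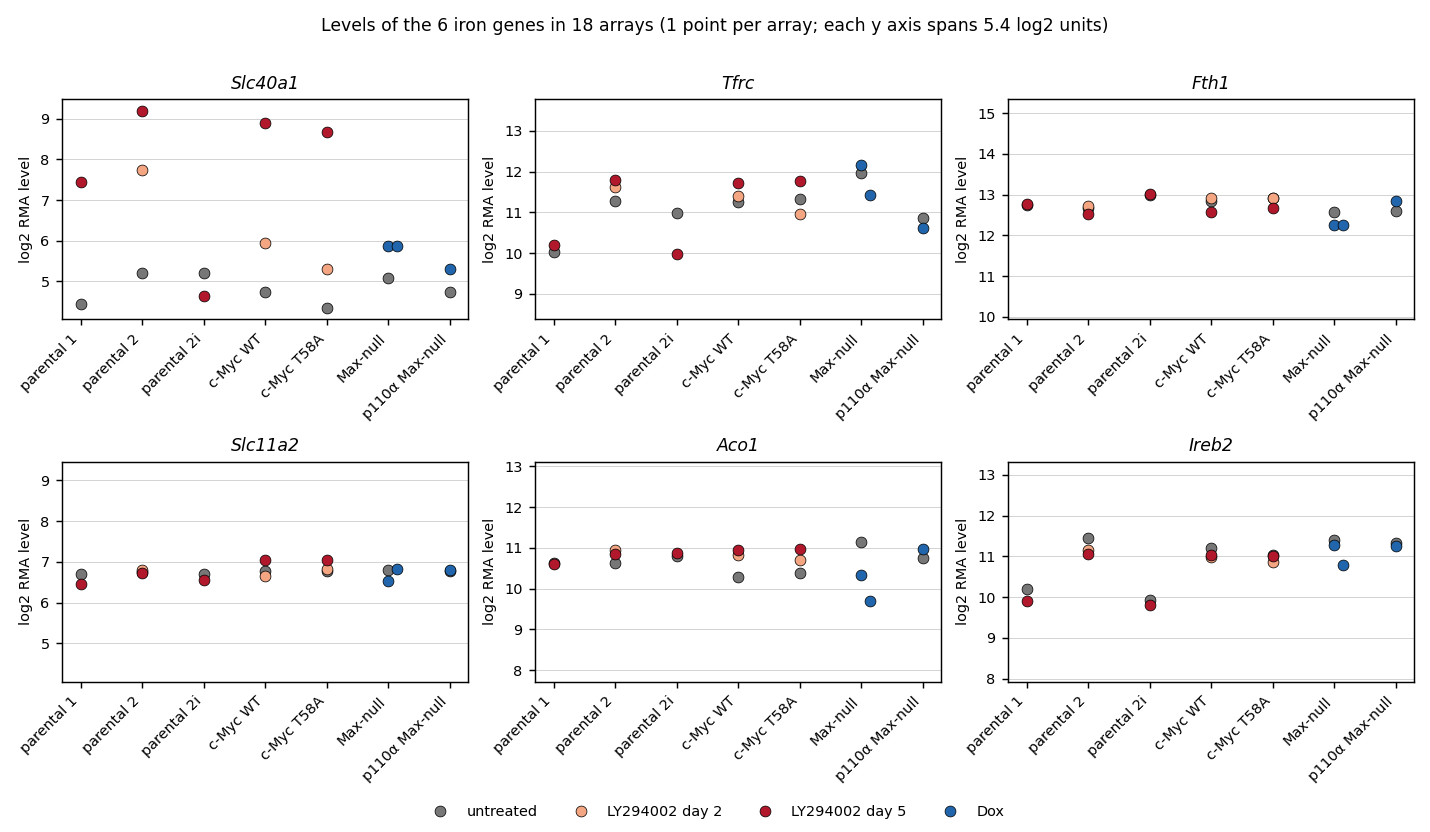
Log2 RMA level (y axis) of each of the 6 genes in the 18 arrays, 1 point per array, by culture (x axis) and treatment (colour), with every y axis spanning the same number of log2 units. Slc40a1 spans 4.84 log2 units between arrays, Tfrc 2.18, Ireb2 1.65, Aco1 1.44, Fth1 0.76 and Slc11a2 0.59.

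Tfrc (chr16:32608896-32632794), which brings transferrin-bound iron into the cell, was expressed in every array. Its highest probe set, 1452661_at, read 10.02 and 11.27 in untreated parental cells, 11.26 with wild-type c-Myc and 11.32 with T58A, and 10.20, 11.78, 11.72 and 11.78 in the same cultures at day 5. On this probe set each pair was higher at day 5, by 0.18, 0.52, 0.46 and 0.46. In parental replicate 1 the other probe sets did not all follow: 1422966_a_at differed by -0.14, 1422967_a_at by -0.45, and the control probe sets for the 5′, middle and 3′ parts by -0.31, -0.19 and 0.07. Parental replicate 1, of the other inferred RMA run, was the lowest of the 4 cultures at both times. The fitted day 5 change was 0.35 ± 0.13 (SE) in parental cells and 0.46 ± 0.13 (SE) in the c-Myc lines, given without a p because the contrast chose Slc40a1.

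At day 2 the lines did not move together in Tfrc, which read 11.61 in parental cells, 11.41 with wild-type c-Myc and 10.95 with T58A, or differences of 0.34, 0.15 and -0.37. The fitted change was 0.04 ± 0.14 (SE, adjusted p = 0.854 with limma). Between day 2 and day 5 the level changed by 0.44 ± 0.14 (SE, adjusted p = 0.123), which did not pass.

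In 2i, Tfrc differed from serum in level and in its response. The untreated 2i array read 10.98, 0.96 above the serum array of its inferred RMA run. The 2i array with LY294002 read 9.98, a difference of -0.999 (2.00-fold lower). Only 282 of 12632 genes had a lower difference in that pair. The response in 2i minus that in parental serum was -1.35 ± 0.23 (SE, adjusted p = 0.513 with limma) and did not pass, in a fit that called 0% of 13580 genes, 889 of them with an unadjusted p under 0.05. It was -1.52 without parental replicate 1 and -1.18 without parental replicate 2. Each of these sets 1 serum pair against 1 2i pair, with no spread within either, so no p is given. All 3 probe sets and all 3 control probe sets of Tfrc were lower with LY294002 in 2i. In the serum pair of the same inferred RMA run most were lower too. Only the highest probe set and the control for the 3′ part were higher there.

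Under Dox the probe sets of Tfrc went apart. In the Max-null line 1452661_at read 11.97 untreated, 12.16 at day 4 and 11.43 at day 6, while 1422966_a_at read 7.30, 7.76 and 8.60 and the control probe set for the 3′ part of the transcript 6.68, 7.31 and 7.92. The day 6 differences were thus -0.53, 1.30 and 1.24, that of 1422967_a_at was -0.66, and the control probe sets for the middle and 5′ parts stayed within 0.11 of no difference. In the p110 alpha line, 1452661_at read 10.87 without and 10.62 with Dox, and 1422966_a_at 6.27 and 5.98. The fitted Dox change of 1452661_at was -0.20 ± 0.31 (SE, adjusted p = 0.868 with limma). No direction under Dox is therefore stated for Tfrc. Untreated, the p110 alpha line was 1.10 log2 units below the plain Max-null line (2.14-fold), a comparison of 1 array each in which 499 of 13211 genes had a lower difference.

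**Figure D3:**
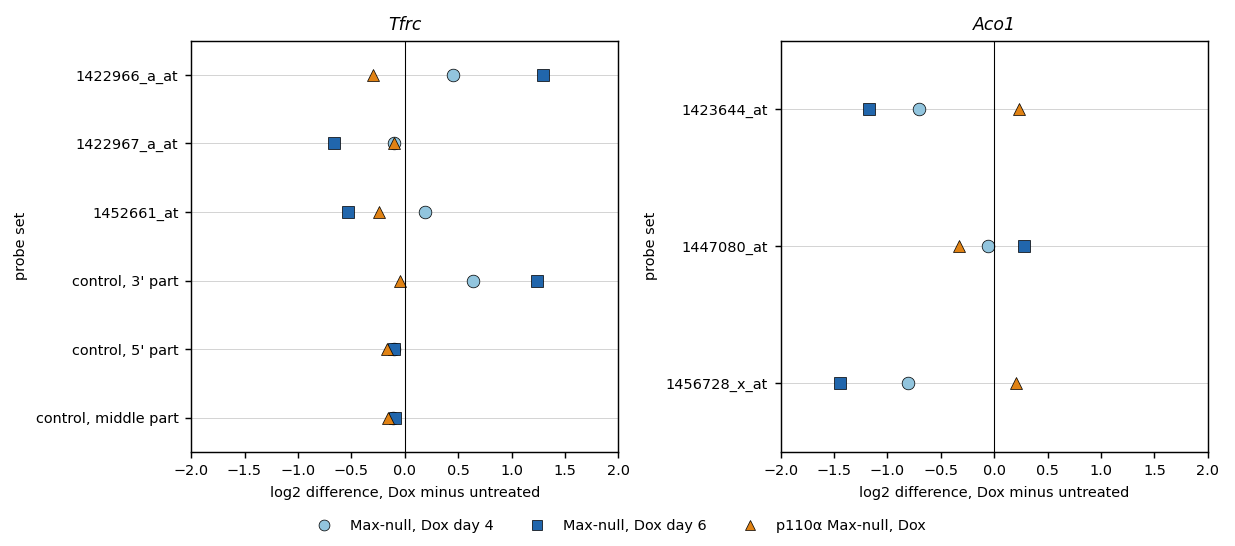
Log2 difference between Dox and no Dox (x axis) for each probe set (y axis) of Tfrc (left) and Aco1 (right), in the Max-null line at day 4 (circles) and day 6 (squares) and in the p110 alpha line (triangles), 1 array per point and side. For Tfrc the day 6 squares lie at 1.30 and 1.24 for 2 probe sets and at -0.53 for the highest one, while for Aco1 they lie at -1.44 and -1.17 for the 2 higher probe sets.

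Aco1 (chr4:40143265-40199009), the iron regulatory protein that becomes aconitase when it holds an iron-sulphur cluster, was the 1 gene besides Slc40a1 that passed at day 2. Its highest probe set, 1456728_x_at, read 10.64, 10.29 and 10.39 in untreated parental replicate 2, wild-type c-Myc and T58A. At day 2 it read 10.95, 10.83 and 10.69, higher in each line. The fitted day 2 change was 0.39 ± 0.10 (SE, 1.31-fold, adjusted p = 0.0277 with limma), in a comparison that called 30.5% of 13420 genes. The call was lost with arrays centred on their medians (0.35, adjusted p = 0.0564), without the wild-type c-Myc line (0.31, adjusted p = 0.239) and without the T58A line (0.43, adjusted p = 0.0685).

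At day 5 Aco1 read 10.85 in parental replicate 2, 10.95 with wild-type c-Myc and 10.98 with T58A, and 0.10 ± 0.10 (SE, adjusted p = 0.598) was added after day 2. Parental replicate 1 read 10.62 untreated and 10.59 at day 5, and the 2i pair 10.80 and 10.87. These are differences of -0.02 and 0.07 in the pairs of the other inferred RMA run. The fitted day 5 changes were 0.09 ± 0.12 (SE) in parental cells and 0.63 ± 0.12 (SE) in the c-Myc lines, and their difference was 0.53 ± 0.17 (SE, adjusted p = 0.996 with limma), in a contrast that called 0% of 13404 genes, 457 of them with an unadjusted p under 0.05. The second probe set, 1423644_at, read 8.24, 8.14 and 8.13 untreated and 8.54, 8.51 and 8.46 at day 2 in the same 3 lines, also higher in each.

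Aco1 was lower with Dox in the Max-null line and not in the p110 alpha line. It read 11.14 untreated, 10.34 at day 4 and 9.70 at day 6, which are differences of -0.80 and -1.44 (2.72-fold lower at day 6). The second probe set read 8.77, 8.07 and 7.60 in the same order. With p110 alpha the 2 probe sets read 10.76 and 8.35 without Dox and 10.96 and 8.58 with it, differences of 0.20 and 0.23. The Dox change over both lines was -0.56 ± 0.39 (SE, adjusted p = 0.80 with limma). With separate changes, the p110 alpha line minus the Max-null line was 1.33 ± 0.57 (SE, adjusted p = 0.27), in a fit with 1 residual degree of freedom that called 1.9% of 13534 genes. The third probe set, 1447080_at, read at most 4.01 in any array, below the filter.

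Untreated, Aco1 read 11.14 and 10.76 in the Max-null lines against 10.64, 10.29 and 10.39 in parental replicate 2 and the c-Myc lines, with no overlap. The difference was 0.51 ± 0.18 (SE, unadjusted p = 0.0292, adjusted p = 0.328 with limma) and did not pass, in a comparison that called 0.267% of 13126 genes. None of the other 5 genes passed there, with changes from -0.22 for Fth1 to 0.15 for Slc40a1. Without the p110 alpha array, the difference of Tfrc was 0.68. That leaves 1 Max-null array, so no p is given. The p110 alpha array (10.87) lay below those of parental replicate 2 and the c-Myc lines (11.26 to 11.32).

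The 250 bases before the annotated starts of Tfrc and Aco1 are shown because each gene had probe sets more than 1 log2 unit apart between day 6 of Dox and no Dox (for Tfrc not the highest one, and with no common direction), and because Max binds with Myc at the E-box CACGTG. They are RefSeq sequence of GRCm38.p6, plus strand, 5′ to 3′, at chr16:32608646-32608895 and chr4:40143015-40143264. Capitals mark matches on either strand to TGCNCNC, a looser pattern than the core of the metal response element. A match is therefore not necessarily that core. Promoter windows were found for 4 of the 6 genes.
Tfrc: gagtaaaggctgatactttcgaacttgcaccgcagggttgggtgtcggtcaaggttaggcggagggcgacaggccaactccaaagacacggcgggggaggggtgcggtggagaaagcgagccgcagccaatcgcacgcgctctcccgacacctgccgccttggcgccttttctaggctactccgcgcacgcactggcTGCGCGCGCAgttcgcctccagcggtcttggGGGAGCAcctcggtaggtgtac
Aco1: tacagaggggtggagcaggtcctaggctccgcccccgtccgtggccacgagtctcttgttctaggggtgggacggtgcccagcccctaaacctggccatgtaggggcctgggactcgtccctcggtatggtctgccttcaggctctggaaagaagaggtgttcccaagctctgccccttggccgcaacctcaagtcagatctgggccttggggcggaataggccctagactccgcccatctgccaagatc
The Tfrc window holds 3 matches to TGCNCNC, of which 2 overlap each other, and the Aco1 window none. Of 32817 windows of this length, 44.4% hold that motif, so its presence is common. Neither window holds CACGTG, found in 6.02% of windows, the FOXO motif GTAAACA (3.16%), the antioxidant element TGACNNNGC (10.2%) or the hypoxia core ACGTG (16.6%). CACGTG was also absent from the other windows of Tfrc, Fth1 and Ireb2, which says only that these letters are not in them. A second annotated window of Tfrc holds ACGTG and TGCNCNC once each, 228 and 248 bases before its start.

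Ireb2 (chr9:54862658-54912534), the iron regulatory protein that is degraded when iron is ample, differed little. Its single probe set read 11.45, 11.21 and 11.03 in untreated parental replicate 2, wild-type c-Myc and T58A, and 11.15, 10.98 and 10.86 at day 2, lower in each line. The fitted day 2 change was -0.23 ± 0.09 (SE, adjusted p = 0.0756 with limma) and did not pass. At day 5 the same lines read 11.06, 11.03 and 11.01, and parental replicate 1 went from 10.21 to 9.90. The fitted day 5 changes were -0.35 ± 0.11 (SE) in parental cells and -0.10 ± 0.11 (SE) in the c-Myc lines. With Dox the Max-null line read 11.41, 11.27 and 10.80 at no Dox, day 4 and day 6, and the p110 alpha line 11.32 and 11.25 (-0.25 ± 0.28, SE, adjusted p = 0.833).

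Fth1 (chr19:9980600-9985111), the ferritin heavy chain that oxidises and stores iron, was high, and nearly level on its highest probe set. Probe set 1427021_s_at read between 12.26 (Max-null, Dox day 6) and 13.01 (2i with LY294002), with a median of 12.73. It detects sequence shared by near-identical copies, so its level is uncertain as that of Fth1 alone. The other probe set, 1448771_a_at, spanned 1.15 log2 units, from 11.59 (Max-null, Dox day 4) to 12.74 (2i with LY294002). With T58A it read 12.58 untreated and 12.08 at day 5. The changes that follow are those of 1427021_s_at. The day 2 change was 0.04 ± 0.07 (SE, adjusted p = 0.693 with limma), and the change from day 2 to day 5 was -0.26 ± 0.07 (SE, adjusted p = 0.0861). At day 5 it differed by -0.05 ± 0.11 (SE) in parental cells and -0.26 ± 0.11 (SE) in the c-Myc lines. With Dox it read 12.58, 12.27 and 12.26 in the Max-null line and 12.60 and 12.85 in the p110 alpha line, in opposite directions, and the difference between lines was 0.57 ± 0.50 (SE, adjusted p = 0.628).

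Slc11a2 (chr15:100387898-100424209), the divalent metal transporter, varied least on its highest probe set. Probe set 1452078_a_at read between 6.47 (parental replicate 1 at day 5) and 7.06 (T58A at day 5). At day 5 both parental pairs were lower (-0.23 and -0.03) and both c-Myc lines higher (0.28 and 0.28), and the difference between them was 0.40 ± 0.16 (SE, adjusted p = 0.996 with limma). The day 2 change was -0.01 ± 0.10 (SE, adjusted p = 0.927) and the Dox change -0.07 ± 0.26 (SE, adjusted p = 0.948). Its 3 further probe sets spanned 0.64, 1.73 and 2.34 log2 units over the arrays. None of them was lower in both parental pairs and higher in both c-Myc lines at day 5. In the Max-null line 1426441_at read 5.65 untreated, 6.60 at day 4 and 6.80 at day 6, while 1452078_a_at read 6.81, 6.52 and 6.81, so the probe sets disagreed there. The lowest values of the 2 widest, 5.17 for 1426441_at and 4.33 for 1441709_at, came from the 4 arrays of the other inferred RMA run.

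The wider iron gene list held 61 genes on the array, from uptake to storage, iron-sulphur cluster assembly and haem. At day 2 of LY294002, 10 of 55 tested genes passed (18.2%), 9 higher and 1 lower. Of all tested genes 30.5% passed, 18.3% higher and 12.3% lower, and the median change was 0.06 against 0.04 over all genes. Without the wild-type c-Myc line 3 passed. Slc40a1 is counted among the 10, although its untreated arrays belong to the contrast that chose it. By role, 3 of 11 genes of uptake and reduction passed, 1 of 4 of export and the hepcidin axis (Slc40a1), 0 of 4 of storage, 1 of 3 iron regulatory genes (Aco1), 2 of 10 of mitochondrial assembly, 1 of 7 of cytosolic assembly and 2 of 16 of haem. The hepcidin gene Hamp exceeded the filter in 2 arrays and was not a tested gene there.

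Among uptake genes, Slc39a8, a transporter of zinc, manganese and iron, had a fitted day 2 change of 1.25 ± 0.34 (SE). It exceeded the filter in 4 arrays, all with LY294002 in serum, and so entered the test only through treated arrays. It is therefore given without a p, although it is counted among the 10. It read 3.40, 3.60 and 3.27 in untreated parental replicate 2, wild-type c-Myc and T58A, then 5.80, 4.27 and 3.95 at day 2 and 7.18, 6.54 and 5.45 at day 5. Parental replicate 1 read 3.16 untreated and 3.40 at day 5 (a difference of 0.24), and the 2i pair 2.85 and 3.11, all below the filter. Like Slc40a1, it was highest at day 2 in the parental line, but its untreated values and 2 of its day 2 values lay below the filter. Steap2, a metalloreductase, rose 0.77 ± 0.10 (SE, adjusted p = 0.00174).

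Scara5, a receptor for ferritin, fell by 2.46 ± 0.17 (SE, adjusted p = 0.000402), from 7.45, 7.77 and 7.96 untreated to 5.56, 5.22 and 5.03 at day 2. At day 5 the same lines read 4.95, 5.10 and 5.14, while parental replicate 1 read 6.10 untreated and 5.38 at day 5. The 3 lines measured at day 2 did not overlap between untreated and treated. Fbxl5, the ligase subunit that removes the iron regulatory proteins, changed by 0.15 ± 0.09 (SE, adjusted p = 0.248) and did not pass. The other genes that passed were Fech, Alas1, Fdx1, Nubp1 and Lyrm4, which rose by 0.65, 0.48, 0.31, 0.29 and 0.22.

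From day 2 to day 5, 1 of 55 iron genes passed (2.35% of all genes did), and it was Slc40a1, whose day 5 arrays are those that chose it. In the day 5 contrasts 1 of 55 iron genes passed in parental cells (Slc40a1) and 2 in the c-Myc lines (Slc40a1 and Abcg2, a porphyrin and drug exporter, at -0.76), and nothing is read from any of these counts. With Dox, 0 of 54 passed, and 3 had an unadjusted p under 0.05: Slc40a1 (0.68), Steap2 (-1.16) and Scara5 (-1.06). Between the untreated Max-null and EBRTcH3 lines 0 of 54 passed, 5 had an unadjusted p under 0.05, and the smallest adjusted p was that of Scara5 (-1.50, 0.0575).

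Taken singly, the Max-null pair at day 6 of Dox held 10 of 55 iron genes at least 2-fold apart (18.2%), 2 higher and 8 lower, against 24.5% of 14019 genes (8.91% higher and 15.6% lower). Besides Aco1, the lower ones were Blvrb (-2.74), the mitochondrial iron importer Slc25a37 (-2.26), Steap2 (-1.98), Scara5 (-1.88), Slc48a1 (-1.36), Hscb (-1.19) and Lyrm4 (-1.14). At day 4 the count was 6 of 54 against 13.9% of all genes, and in the p110 alpha pair 0 of 53 against 2%. The mean of the 12 endoderm genes was 4.74 to 5.16 in the untreated Max-null lines and 5.17 to 5.63 in the Max-null line with Dox. It was 5.21 in the p110 alpha line with Dox. The mean of 7 fibroblast feeder genes was 4.26 to 4.31, 4.48 to 4.87 and 4.41 in the same order. That of 7 erythroid genes was 4.209 to 4.281, 4.284 to 4.619 and 4.493. Those of the macrophage and trophoblast genes overlapped between the untreated lines and the Max-null line with Dox. The part of other cell types in these values was not tested.

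Untreated parental cells in 2i and in serum, 1 array each within the same inferred RMA run, differed at least 2-fold in 5 of 54 iron genes (9.26%), against 5.83% of 12580 genes. The metal transporter Slc39a14 read 4.97 in 2i and 8.68 in serum (-3.71, 13.1-fold lower), and Steap2 read 5.90 and 7.58 (-1.67). Scara5 (7.92 and 6.10), the haem transporter Flvcr2 (8.05 and 6.41) and the haem oxygenase Hmox1 (8.68 and 7.65) were higher in 2i. With LY294002, Slc39a14 read 6.18 in 2i and 8.45 in serum, and Scara5 6.61 and 5.38.

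**Figure D4:**
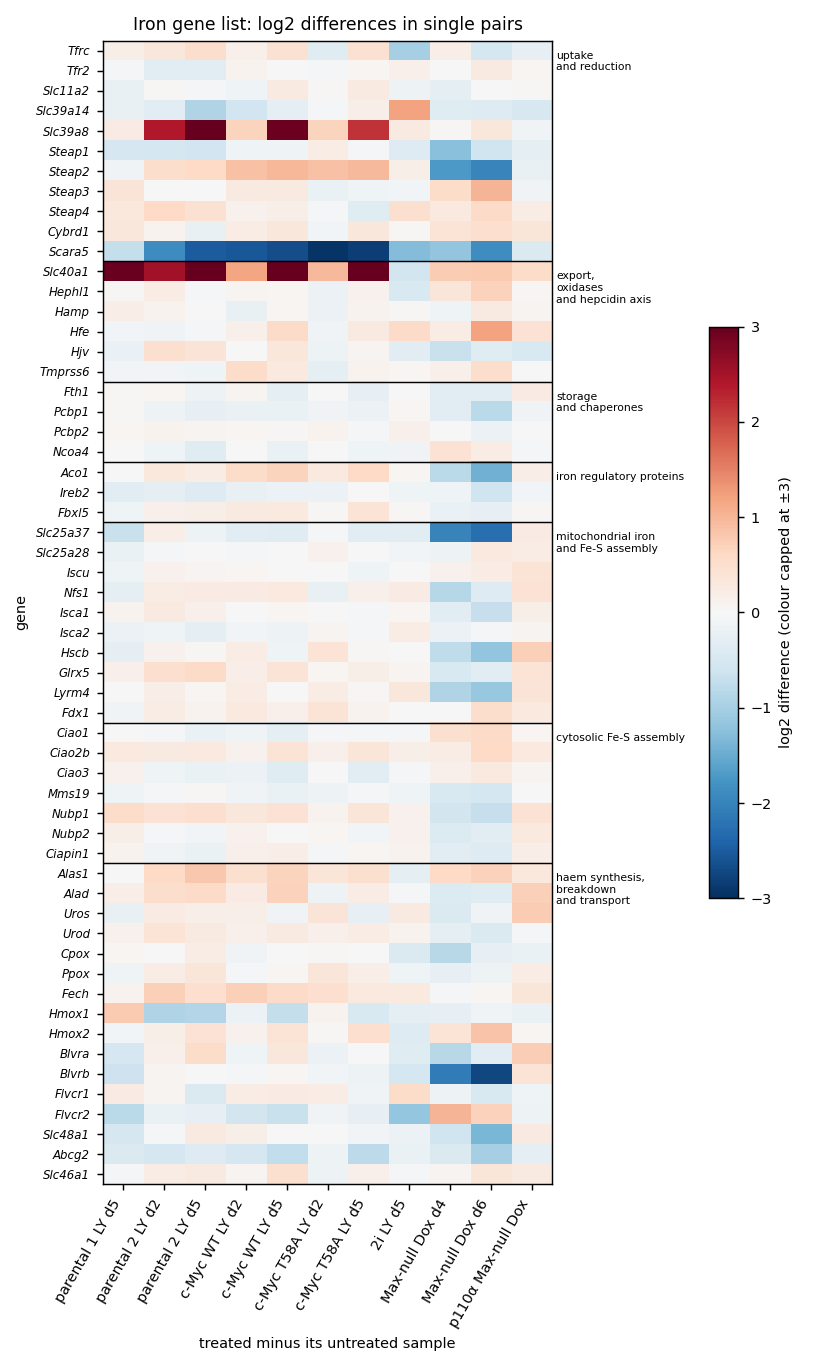
Log2 difference between each treated array and its untreated array (colour, capped at 3 either way) for the iron list genes that exceeded the level filter in at least 1 array (rows, grouped by role) in 11 pairs (columns). Slc40a1 is higher in every serum LY294002 column (0.97 to 4.32), Slc39a8 and Scara5 stand out in those of parental replicate 2 and the c-Myc lines but differ by 0.24 and -0.72 in parental replicate 1, and the blue Aco1, Slc25a37 and Blvrb cells lie in the Max-null Dox columns.

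The genes whose levels went most closely with Slc40a1 over the 18 arrays, among 14066 genes, were Gbp2b (Pearson r = 0.942), Gbp2 (0.936), Itga1 (0.936), Gm16136 (0.929) and Podxl (0.929). The most opposed were Laptm5 (-0.906), Tcl1 (-0.889) and Tbx3 (-0.883), the last a factor of naive ESCs. For Tfrc they were Ipo7 (0.954), Dusp26 (0.916) and Zfp667 (0.905). These are descriptions over arrays that share untreated samples and 2 inferred RMA runs. Of the 8 genes named for Slc40a1, 1 was named again with the 14 arrays of 1 run and 1 with Spearman's rho, and for Tfrc 1 of 3 each time. Among the 6 iron genes themselves, the r of Slc40a1 over 18 arrays was 0.431 with Tfrc, 0.343 with Slc11a2, 0.285 with Aco1, 0.085 with Ireb2 and -0.331 with Fth1. That of Tfrc with Ireb2 was 0.706 over 18 arrays and 0.029 over the 14 of 1 run.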

How the data were processed

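RNA isolated with TRIzol was hybridised as biotinylated cRNA, per the labels' protocols. The deposited values are on the log2 scale and come from RMA with the affy package, per the submitters' processing notes. Versions and settings were not given in the sources used here. Arrays have no read depth, and precision is limited by how many there are. The highest correlation between arrays was 0.997 and 0 pairs were identical.

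Of 45101 probe sets, 64 were controls, 34945 named 1 gene, 932 several and 9160 none, and 34741 were matched to a reference gene by identifier. Each gene took its probe set with the highest mean. Probe sets naming several genes were not used, so Ftl1 was not analysed here. Genes were tested where at least 2 arrays of a fit exceeded 4.64. limma 3.58.1 (lmFit and eBayes, R 4.3.3) was fitted over all genes, with 2-sided p-values, Benjamini-Hochberg adjustment and a threshold of 0.05. The day 5 fit used 8 serum arrays with the pair as a block, the day 2 fit 9 arrays with line as a block, the Dox fit 5 arrays with line as a block, and the untreated fit 5 arrays. In each fit a gene has a single estimate of its spread, shared by all groups and moderated over all genes. Pairs follow the reference sample that each description names. Their deviations correlated at 0.563 (parental replicates) and 0.172 (c-Myc lines) over 13404 genes. Another 3 differences, between responses, were added after the data were seen. Single pairs were not tested, and at least 2-fold was counted. Scripts were tested on simulated data.

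The named genes are the 6 genes, Fbxl5, the iron list genes called with Dox or between untreated lines, the 3 called at day 2 with the largest change each way, and the 5 highest and 3 lowest correlations with Slc40a1 (3 highest for Tfrc). Other named genes were chosen after their values were seen. The genes, lists and rules were chosen with earlier results of these data known. Alternatives changed the filter, scaling, probe set, prior, threshold, block and samples.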

Additional observations from a re-analysis of the deposited data

Results flagged for a closer look

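The LY294002 response of Slc40a1 at day 5 had opposite signs in 2i (-0.54) and in the parental serum pairs (2.97 and 3.97), a difference of -4.02 ± 0.45 (SE), given without a p because the serum pairs chose the gene. That of Tfrc was -0.999 in 2i and 0.18 and 0.52 in serum, a difference of -1.35 ± 0.23 (SE, adjusted p = 0.513 with limma). The 2i side is 1 pair, so its own spread is not known. The Tfrc values are those of its highest probe set. In parental replicate 1 most of its other probe sets were lower at day 5.

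With Dox, Aco1 was lower at both times in the Max-null line (-0.80 and -1.44) and 0.20 higher in the p110 alpha line, a difference of 1.33 ± 0.57 (SE, adjusted p = 0.27). Fth1 went the same 2 ways (-0.31 and -0.32 against 0.25), a difference of 0.57 ± 0.50 (SE, adjusted p = 0.628). The day of Dox in the p110 alpha line is not stated, so the times cannot be matched.

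Slc11a2 at day 5 was lower in both parental pairs (-0.23 and -0.03) and higher in both c-Myc lines (0.28 and 0.28), a difference of 0.40 ± 0.16 (SE, adjusted p = 0.996 with limma). This split was seen on the highest probe set only, and none of the other probe sets of Slc11a2 gave it. On probe set 1426441_at, parental replicate 1 was instead 0.85 higher. None of the 4 differences given with a p passed, and the cause of each was not tested.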

How the results depend on the processing

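Of the values for single genes, 604 kept their side of the threshold, 14 lost and 22 gained a call. All 14 losses fell on Slc40a1 (11, with 88 kept and 2 gained) and Aco1 (3, with 97 kept and 5 gained). The calls of these genes were therefore less stable than the pooled count shows. Among all values for single genes, 51 had the opposite sign to the reported value. Of these 51, 0 were called in either fit, so for changes that did not pass the sign is not settled. The count of iron genes that passed was more sensitive. At day 5 in parental cells it was 1, 0 without the replicate block, and 0 to 13 leaving out a pair (13 without parental replicate 1, 5 without parental replicate 2, 0 without either c-Myc line). At day 5 in the c-Myc lines it was 2, 4 with arrays centred, with quantile normalization or with the trended prior, 5 at a threshold of 0.1, 1 without the replicate block, and 0 to 21 leaving out a pair (21 without either parental replicate, 0 without either c-Myc line). For the difference between them it was 0, and 0 to 5 leaving out a pair (5 without parental replicate 2). At day 2 it was 10, 17 at a threshold of 0.1, 5 without the replicate block, and 3 to 8 leaving out a line. From day 2 to day 5 it was 1, 3 with the filter at the 60th percentile or the mean of all probe sets, 2 with arrays centred or with quantile normalization, 4 with the trended prior or a threshold of 0.1, 0 without the replicate block, and 0 to 3 leaving out a line (3 without parental replicate 2, 0 without either c-Myc line). With Dox it was 0, and 0 to 4 leaving out an array (4, all lower, without either p110 alpha array). Between untreated lines it was 0, 1 with no filter, with arrays centred, with quantile normalization or at a threshold of 0.1, and 0 to 2 leaving out an array (2 without the p110 alpha array). The cause of these moves was not tested, beyond the fewer arrays in the leave-one-out fits. Where 1 array remains in an arm, it is assumed to vary like the others.

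Over all genes, the parental day 5 count of 71 was 134 with arrays centred, 122 with quantile normalization, 455 at a threshold of 0.1 and 0 without the replicate block. The c-Myc day 5 count of 351 was 627, 681, 1815 and 44. The day 2 count of 4099 was 2663 without the replicate block.

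With 1 (the difference in Dox response between lines) to 4 residual degrees of freedom, a p that misses the threshold says little about small changes.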

Other observations

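Regulators of the iron, oxidant and oxygen responses were also read. At day 2 of LY294002 the only one of 7 that passed was Nfe2l2, the oxidative stress factor (-0.40, adjusted p = 0.00637 with limma), in a comparison that called 30.5% of genes. In the Max-null line, Keap1, its inhibitor, read 8.25 untreated, 6.48 at day 4 and 6.33 at day 6 of Dox, Bach1 10.12, 9.16 and 8.50, and Nfe2l2 10.80, 10.00 and 9.56. With p110 alpha, Keap1 read 7.92 without and 8.08 with Dox, Bach1 9.84 and 9.84, and Nfe2l2 10.91 and 11.07, so none of the 3 was lower there. The fitted Dox changes over both lines, -0.98 ± 0.46, -0.74 ± 0.39 and -0.51 ± 0.36 (SE), did not pass (adjusted p = 0.80 each with limma).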
